A study of Mus musculus with 21 samples.

Results

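Macrophages that carried Ly-6B in the mouse peritoneal cavity 168 h after zymosan were set against macrophages taken 72 h after zymosan. The comparison used the 3 arrays of the first group and the 3 of the second, out of 21 arrays in 7 groups of 3. Arrays were chosen by their labels alone, and all genes with a probe set assigned to a single symbol were followed. Of 18194 such genes, 12169 gave a signal high enough to be tested.

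All mice were female C57BL/6 animals of 7 to 8 weeks, and no genetic change is named for any group. Zymosan, a preparation of yeast cell wall, had been injected into the peritoneum to start an inflammation that clears by itself. The 168 h cells were sorted as F4/80 medium to high and Ly-6B+, and the 72 h cells as F4/80+ and CD11b+ with no Ly-6B gate named. The other 5 groups share the estimate of spread in the fit and are otherwise used for levels and for an overlap of calls. They were Ly-6B- macrophages at 168 h, peritoneal monocytes at 4 h, monocytes and macrophages at 18 h, and resident peritoneal macrophages and Ly-6B+ bone marrow monocytes of naive mice. The labels call the replicates biological but do not say whether animals were pooled, so p-values measure the spread between these samples. Time and sort gate differ together between both groups and cannot be told apart. F4/80 (Adgre1) and CD11b (Itgam) served for sorting, and their levels are no finding.

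Resident peritoneal macrophages live in the fluid of the healthy cavity, take up dying cells and carry a set of genes of their own, many of them under retinoid signals and the factor GATA6. Inflammation draws in blood monocytes, which become macrophages over days, and with time some of them take on genes of the resident cells. Ly-6B is a surface antigen of neutrophils, monocytes and recently recruited macrophages.

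Genes of macrophages were checked in both groups. Csf1r, the receptor for the macrophage growth factor CSF1, read 25531, 28559 and 31917 in the Ly-6B+ arrays and 26789, 27622 and 29396 at 72 h, and Lyz2, the lysozyme of myeloid cells, 24597, 28506 and 30853 in the Ly-6B+ arrays and 23851, 27829 and 24502 at 72 h. Both were also strong in bone marrow monocytes, at 24498 and 29181 on average, so they do not mark macrophages alone. Adgre1, the macrophage antigen F4/80, read 24049, 23626 and 21068 in the Ly-6B+ arrays and 29794, 33098 and 34427 at 72 h, against a marrow mean of 4476. Each Ly-6B+ array was below each 72 h array, with a difference of -0.50 ± 0.11 (SE, adjusted p = 0.00887), which was under the size for a call. Both groups were sorted on F4/80, so neither the level of Adgre1 nor this difference is a finding. Mertk was likewise far above its marrow mean of 66.2 in both groups. Of the 7 macrophage genes checked, Cd68 alone was called, at -1.15, and Itgam and Fcgr1 overlapped between the groups. The median signals of the 6 arrays lay between 74.4 and 93.0. Across the genes tested, the log2 signals of arrays of 1 group correlated at r = 0.974 to 0.977 for Ly-6B+ and 0.965 to 0.974 for 72 h, against 0.951 to 0.969 between both groups.

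A single array stood apart. The second replicate at 72 h carried signals of B cells and mast cells far above those of the other 2. Ms4a1, the B cell antigen CD20, read 1753, 917 and 688 in the Ly-6B+ arrays and 267, 5384 and 289 at 72 h. Cpa3, a protease of mast cell granules, read 604, 398 and 439.9 in the Ly-6B+ arrays and 140.0, 3408 and 131 at 72 h. The summed signal of 13 B cell genes was 5132 and 6488 in the other 72 h arrays, 19458 in this one and 5538 to 7554 in Ly-6B+. With all arrays 1 B cell gene of 11 tested was called, the adaptor Blnk, which read 201, 180.1 and 161 in the Ly-6B+ arrays and 535, 1222 and 621 at 72 h and differed by -1.96 ± 0.40 (SE, adjusted p = 0.00442). Without that array Blnk was still lower, at -1.60, and the B cell genes Ms4a1 and Ighm and the mast cell genes Cpa3 and Cma1 were called higher in Ly-6B+, by 1.84, 1.72, 1.70 and 1.13. The ratio of 3' to 5' Gapdh signal, a measure of RNA integrity, was 2.17 to 2.89 in the Ly-6B+ arrays and 1.98 to 2.46 at 72 h.

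Signals were taken as log2(signal + 15) and compared with limma over all 21 arrays. A gene is called here where its adjusted p was under 0.05 and its difference at least 1 on the log2 scale. Differences are Ly-6B+ minus 72 h on that scale, which understates the change of genes of low signal. In the Ly-6B+ macrophages 309 genes were called, 2.54% of those tested. Of these, 82 genes (0.674%) were higher and 227 (1.87%) lower. These shares are the background for each count of called genes in a list given below. In 19.2% of the genes tested the arrays of 1 group all lay above those of the other, with Ly-6B+ higher in 9.68% and lower in 9.57%. The median difference over all genes tested was 0.000685. In a bulk sample, fewer cells of a type and less RNA per cell cannot be told apart, and this holds for each difference given here.

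**Figure D1:**
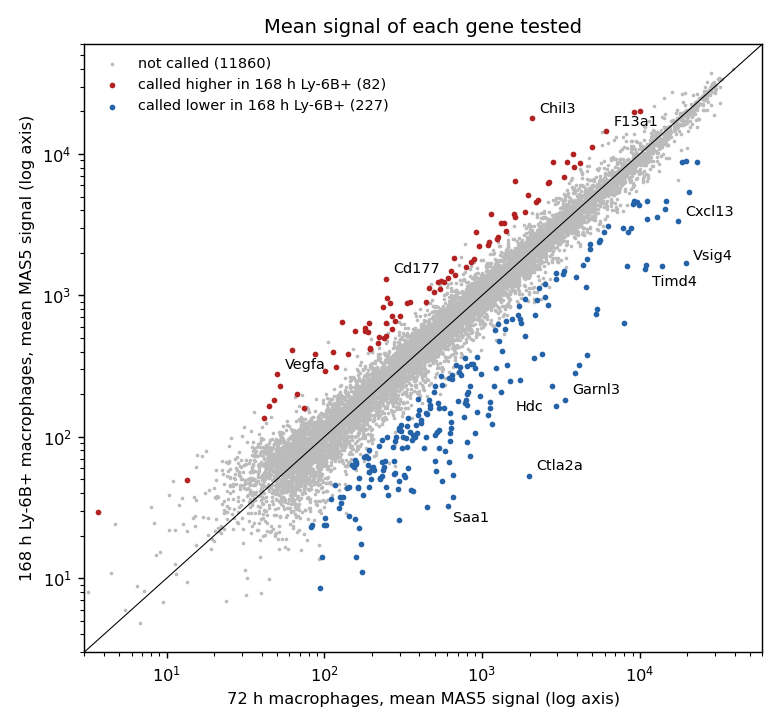
Mean MAS5 signal of each of the 12169 genes tested at 72 h (x axis, log) and in Ly-6B+ macrophages at 168 h (y axis, log), with 1 point per gene. The 82 genes called higher in Ly-6B+ lie above the diagonal of equal signal and the 227 called lower lie below it, farthest from it Ctla2a.

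Of the 4 genes that mark this comparison, Chil3 and Cd177 were higher in the Ly-6B+ macrophages, and Ctla2a and Hdc lower. They were picked with earlier results of these arrays known, so their direction is a description. Chil3, the chitinase-like lectin Ym1, read 21988, 18592 and 13034 in the Ly-6B+ arrays and 2469.6, 1605 and 2180.0 at 72 h. The lowest Ly-6B+ array lay far above the highest at 72 h, and the difference was 3.08 ± 0.41 (SE, adjusted p = 4.96e-05). Its neighbour Chil4, whose sequence is close to it, differed by 0.51 ± 0.41 (SE, adjusted p = 0.639) and was not called.

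Cd177, a surface protein of neutrophils and monocytes, read 1078, 1409 and 1440.4 in the Ly-6B+ arrays and 254, 249.8 and 234 at 72 h. The 72 h arrays were nearly level, each Ly-6B+ array stood clear of them, and the difference was 2.33 ± 0.17 (SE, adjusted p = 3.43e-08). No other neutrophil gene was called. Of 15 neutrophil genes tested 1 was called, Cd177 itself, and their median difference was 0.211. The granule genes S100a8 and S100a9 differed by 0.14 and -0.03. The summed neutrophil signal was 20404 to 20774 in Ly-6B+ and 15354 to 18062 at 72 h, and its part in the Cd177 difference was not tested.

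Ctla2a, an inhibitor of cathepsin-type proteases, gave the largest difference of all genes called. It read 56.6, 43.6 and 58.7 in the Ly-6B+ arrays and 1760.0, 1578 and 2590.4 at 72 h, so that each 72 h array was far above each Ly-6B+ array. The difference was -4.85 ± 0.29 (SE, adjusted p = 1.56e-09). Ctla2b, a close relative on the same chromosome, read 1425, 1402 and 1195 in the Ly-6B+ arrays and 3273, 3594 and 4891 at 72 h, a difference of -1.52 ± 0.17 (SE, adjusted p = 7.04e-06). Probes of such similar genes can cross-hybridise, so the values of each are uncertain to that extent.

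Hdc, the enzyme that makes histamine, read 187, 195 and 113 in the Ly-6B+ arrays and 2655, 2814 and 3331 at 72 h. The groups did not overlap, and the difference was -4.06 ± 0.53 (SE, adjusted p = 4.82e-05). A second probe set of Hdc differed by -4.52. Mast cells also make Hdc. Cma1, a mast cell protease, read 311, 296 and 381 in the Ly-6B+ arrays and 128, 2234 and 156 at 72 h, and the part of mast cells in the Hdc difference was not tested.

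The promoters of Ctla2a and Ctla2b are shown because both genes were lower in Ly-6B+ and both carry the letters TGANTCA. With C or G at N these are the core recognised by AP-1 factors, but the search took any base there. Those of Serpinb2, a protease inhibitor that was also lower, and Tnfaip3, an inhibitor of NF-kB signalling that was higher, hold TGANTCA as well. The match in Serpinb2 has A at N. Sequences are from RefSeq on GRCm38.p6, run 5′ to 3′ on the strand of the gene from 250 bases before the start of the transcript to 50 after it, and have the match in capitals. Ctla2a is at chr13:60936576-60936875 on the minus strand, Ctla2b at chr13:60897398-60897697 on the minus strand, Serpinb2 at chr1:107511173-107511472 on the plus strand and Tnfaip3 at chr10:19015361-19015660 on the minus strand. Ctla2a, Serpinb2 and Tnfaip3 have further starts, which are not shown. The promoters at those of Ctla2a and Serpinb2 also hold the match, and the promoter at that of Tnfaip3 holds none.
Ctla2a: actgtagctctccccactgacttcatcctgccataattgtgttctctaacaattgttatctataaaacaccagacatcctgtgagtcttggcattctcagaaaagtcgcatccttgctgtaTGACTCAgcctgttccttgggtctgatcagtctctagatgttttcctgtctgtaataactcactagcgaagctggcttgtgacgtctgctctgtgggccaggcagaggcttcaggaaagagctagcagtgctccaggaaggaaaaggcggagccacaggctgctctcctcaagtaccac
Ctla2b: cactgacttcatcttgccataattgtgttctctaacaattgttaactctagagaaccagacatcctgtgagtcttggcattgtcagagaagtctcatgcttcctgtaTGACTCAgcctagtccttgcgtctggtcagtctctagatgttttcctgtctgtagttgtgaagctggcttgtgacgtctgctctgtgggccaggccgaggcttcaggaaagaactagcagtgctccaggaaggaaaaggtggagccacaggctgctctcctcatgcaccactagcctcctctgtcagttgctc
Serpinb2: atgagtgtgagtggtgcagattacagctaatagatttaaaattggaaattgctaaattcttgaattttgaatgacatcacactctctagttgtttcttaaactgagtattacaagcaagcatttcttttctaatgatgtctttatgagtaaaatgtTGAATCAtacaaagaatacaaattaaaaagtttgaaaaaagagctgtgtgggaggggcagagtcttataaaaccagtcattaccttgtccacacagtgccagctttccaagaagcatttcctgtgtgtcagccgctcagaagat
Tnfaip3: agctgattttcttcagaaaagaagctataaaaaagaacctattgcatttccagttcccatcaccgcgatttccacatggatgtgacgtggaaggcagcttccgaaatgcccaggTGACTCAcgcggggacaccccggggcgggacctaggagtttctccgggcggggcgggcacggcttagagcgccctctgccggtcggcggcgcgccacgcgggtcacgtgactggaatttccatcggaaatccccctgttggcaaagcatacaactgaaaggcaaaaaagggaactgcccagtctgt
Counted from the start of the transcript, the match began at base -129 in Ctla2a, -143 in Ctla2b, -94 in Serpinb2 and -136 in Tnfaip3. Both strands were searched, and TGANTCA reads as the same pattern on either. RefSeq promoters were found for 9875 of the genes tested, 179 of the 227 lower genes and 61 of the 82 higher ones. TGANTCA stood in a promoter of 27 lower genes (15.1%), 6 higher genes (9.84%) and 649 of all genes (6.57%). CACGTG, the letters of an E-box, stood in 7.82% of lower genes, 21.3% of higher genes and 11.6% of all. TGACGTCA, a cyclic AMP response element, was present in 2.23%, 4.92% and 3.44% respectively. A gene can have several promoters, which raises its share. Counted per promoter of lower, higher and all genes, TGANTCA stood in 12.1%, 6.74% and 5.5%. In the same order CACGTG stood in 5.65%, 14.6% and 9.7%, and TGACGTCA in 1.61%, 3.37% and 2.92%. Motifs and genes to show were chosen after the calls were known, no test was made, and a match is a string of letters and not a binding site.

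**Figure D2:**
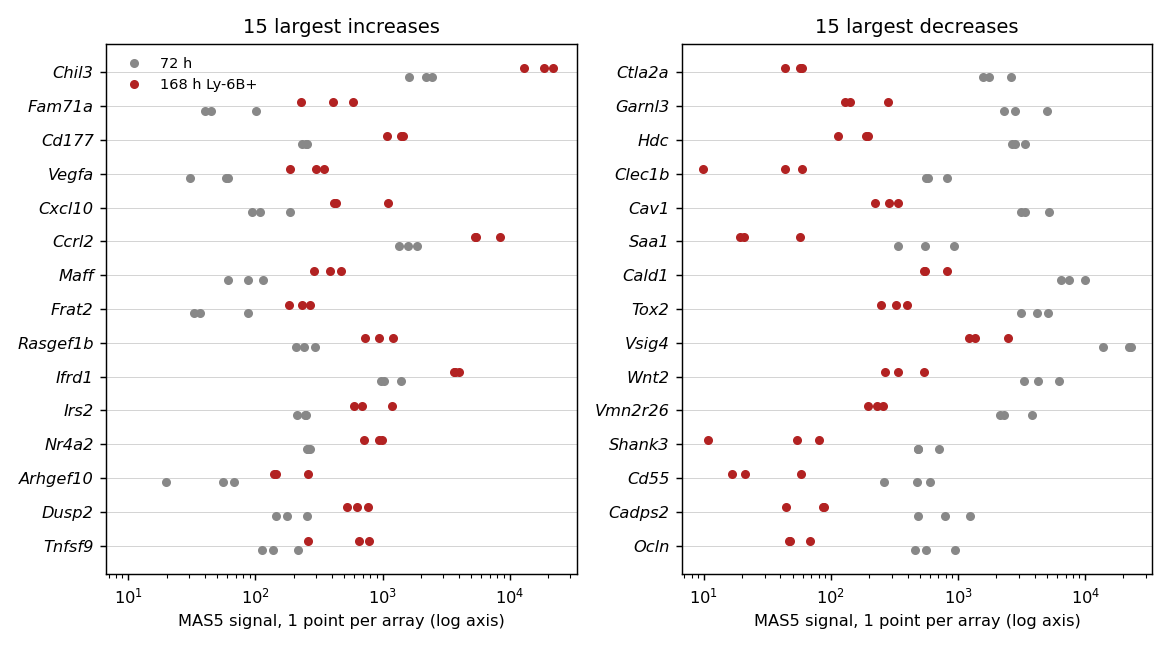
MAS5 signal (x axis, log) of the 15 genes with the largest increase and the 15 with the largest decrease among called genes whose arrays did not overlap, with 1 point per array, red for Ly-6B+ at 168 h and grey for 72 h. Red points lie to the right of grey ones on the left panel and to the left of them on the right panel, with the widest gap in Ctla2a.

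Many genes of resident peritoneal macrophages were lower in the Ly-6B+ cells. The list of them was chosen with earlier results of these data known, so its count is a description. Of 23 tested, 11 were called lower and 12 were not called, with a median difference of -1.02 against 0.000685 over all genes. The called share of all genes in that direction was 1.87%. Between 9 and 12 of them were called lower whichever single array was left out.

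Timd4, a receptor that binds phosphatidylserine on dying cells, read 1375, 2141 and 1352 in the Ly-6B+ arrays and 12640, 12561 and 16540 at 72 h, a difference of -3.11 ± 0.34 (SE, adjusted p = 4.54e-06). Vsig4, a complement receptor that clears opsonised particles, read 1348, 2477 and 1220.1 in the Ly-6B+ arrays and 13701, 22064 and 22941 at 72 h, a difference of -3.56 ± 0.42 (SE, adjusted p = 1.33e-05). For both the lowest 72 h array stood far above the highest Ly-6B+ array. Garnl3, named for its similarity to GTPase activating proteins, read 140.4, 279 and 129 in the Ly-6B+ arrays and 2300.0, 2792 and 5026 at 72 h, a difference of -4.09 ± 0.31 (SE, adjusted p = 3.43e-08). The third 72 h array was the highest of the 6 in Garnl3, and the groups were far apart without it.

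Cxcl13, a chemokine that draws B cells into the cavity, read 2221, 6139 and 1662 in the Ly-6B+ arrays and 9839, 18945 and 23939 at 72 h. The Ly-6B+ arrays were uneven in it, yet the highest of them was below the lowest at 72 h, and the difference was -2.53 ± 0.42 (SE, adjusted p = 0.000654). Aspa, which splits acetylaspartate, read 765, 921 and 529.9 in the Ly-6B+ arrays and 4237, 4346 and 7167 at 72 h, a difference of -2.80 ± 0.33 (SE, adjusted p = 1.19e-05). Selp, the adhesion molecule P-selectin, differed by -1.02 ± 0.26 (SE, adjusted p = 0.0214) and Cd9, a tetraspanin, by -1.36 ± 0.34 (SE, adjusted p = 0.021).

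Tgfb2, Ltbp1, Ptgis and Apoc1 belong to the resident list too and were called lower, with values given below. The other 12 resident genes tested were not called. Gata6, the factor that sets much of the resident program, read 1844, 2121 and 1554 in the Ly-6B+ arrays and 2873, 3599.8 and 3749 at 72 h. Its arrays did not overlap, and the difference of -0.89 ± 0.20 (SE, adjusted p = 0.00914) was below the size set for a call. Another 2 probe sets of Gata6 differed by -1.35 and -1.82, and the gene was called lower in 3 of 20 alternatives. Marco, a scavenger receptor, read 4277, 8448 and 6865 in the Ly-6B+ arrays and 13508, 19928 and 19356 at 72 h and differed by -1.46 ± 0.66 (SE, adjusted p = 0.285), which missed the threshold on p. Alox15, a lipoxygenase, differed by -0.05, and Prg4, a secreted proteoglycan, by -0.08, both with overlapping arrays. Icam2, Cd5l and Fcna, all named with resident cells, differed by -0.19, -0.30 and -0.14.

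A set of genes for caveolae, cell junctions and the actin skeleton was lower in most of its members. The list was drawn up after values had been seen, so its count is a description. Of 21 genes tested, 16 were called lower, 1 higher and 4 neither, with a median of -1.44. Over all genes tested, 1.87% were called lower and 0.674% higher. Cav1, the coat protein of caveolae, read 338, 288 and 222 in the Ly-6B+ arrays and 3338, 3121 and 5206 at 72 h, a difference of -3.69 ± 0.27 (SE, adjusted p = 3.43e-08). Cav2, its partner, read 2045, 1714 and 1671 in the Ly-6B+ arrays and 4328, 4696 and 4808 at 72 h, a difference of -1.35 ± 0.19 (SE, adjusted p = 0.000114). Both caveolins were lower in each Ly-6B+ array than in any 72 h array.

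Ocln, a membrane protein of tight junctions, read 46.8, 67.8 and 47.6 in the Ly-6B+ arrays and 461, 557 and 946 at 72 h, a difference of -3.22 ± 0.34 (SE, adjusted p = 3.09e-06). Tjp1, the scaffold under such junctions, differed by -1.44 and Cldn10, a claudin, by -1.69. The exception was Jam2, a junctional adhesion molecule, which read 2571, 2579 and 2401 in the Ly-6B+ arrays and 1432, 1056 and 1223 at 72 h and was higher by 1.03 ± 0.21 (SE, adjusted p = 0.00407). It was not called with array 2 of the 72 h group left out, when 14 genes of the list were lower and 0 higher.

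Among actin binding proteins, Cald1, which bundles actin and holds back myosin, read 549, 824 and 542 in the Ly-6B+ arrays and 6428, 7408 and 9934 at 72 h, a difference of -3.61 ± 0.46 (SE, adjusted p = 3.78e-05). Fscn1 and Pls3, both bundlers of actin filaments, differed by -2.48 and -2.11. Talin links integrins to actin, and its forms parted: Tln2 differed by -2.59 ± 0.37 (SE, adjusted p = 0.000121), and Tln1 by -0.25 with no call. The unconventional myosins Myo6, Myo1e and Myo1d differed by -1.69, -1.39 and -1.14. Where each gene was given the mean of its probe sets, 9 genes of the list were lower and 0 higher.

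Integrins and other adhesion genes were lower in part. Of 20 tested, 4 were called, all lower, with a median of -0.275. Itgb1, the beta chain shared by many matrix receptors, read 2497, 2722 and 2125 in the Ly-6B+ arrays and 5596, 6124 and 5171 at 72 h, a difference of -1.20 ± 0.26 (SE, adjusted p = 0.00775). Itgb3, the beta chain of the vitronectin receptor, read 57.1, 129 and 112 in the Ly-6B+ arrays and 287, 376 and 288 at 72 h, a difference of -1.59 ± 0.36 (SE, adjusted p = 0.0106). The other 2 were Selp and Cd9, given above, and the Cd9 call was lost in 5 of 20 alternatives. Itgb2, the beta chain of CD11b, differed by -0.35 and was not called.

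Signals to other cells differed in kind. Tgfb2, a ligand of the TGF-beta family, read 1336, 1808 and 1437 in the Ly-6B+ arrays and 11706, 8021 and 12775 at 72 h, a difference of -2.80 ± 0.32 (SE, adjusted p = 8.97e-06). The highest Ly-6B+ array of Tgfb2 was far below the lowest at 72 h. Tgfb1, the form most macrophages make, read 1105, 800.3 and 634 in the Ly-6B+ arrays and 708, 692 and 453 at 72 h, with a difference of 0.44 ± 0.40 (SE, adjusted p = 0.701) and no call. Ltbp1, which stores the latent ligand in matrix, read 1763, 1947 and 1137 in the Ly-6B+ arrays and 7485, 7974 and 9612 at 72 h, a difference of -2.39 ± 0.43 (SE, adjusted p = 0.00137). In Ltbp1 the groups were as clearly apart. Of 19 genes of the TGF-beta and BMP pathways tested, 5 were lower and 2 higher, with a median of 0.0118. The receptor Bmpr1a was lower at -2.18, and so were the ligand Bmp6 at -1.55 and the protease Htra3 at -1.34. The Bmp6 call was lost in 6 of 19 alternatives and the Htra3 call in 5 of 20. The co-receptor Tgfbr3 was higher by 1.03 and the decoy receptor Bambi by 1.02, and these calls were lost in 11 and 9 alternatives of 20.

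Wnt2, a secreted WNT ligand, read 335, 541 and 265 in the Ly-6B+ arrays and 3313, 4243 and 6243 at 72 h, a difference of -3.56 ± 0.44 (SE, adjusted p = 2.5e-05). The WNT receptor Ryk was lower at -2.39, as were the planar polarity genes Prickle1 at -2.34 and Prickle2 at -1.58, the last a call lost in 8 of 19 alternatives. Wnt7b, another ligand, went the other way: it read 164, 171 and 272 in the Ly-6B+ arrays and 111, 41.4 and 49.3 at 72 h, a difference of 1.46 ± 0.32 (SE, adjusted p = 0.00811), with the call lost in 6 of 19 alternatives. Of the 17 WNT genes tested, 4 were lower and 2 higher, and the other higher one was Frat2, an inhibitor of GSK3, at 1.93. The list was chosen after values were seen, as was that of the TGF-beta and BMP pathways.

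Growth factors and matrix genes went both ways. Vegfa, the main growth factor of blood vessels, read 298, 187 and 346 in the Ly-6B+ arrays and 30.7, 61 and 59 at 72 h, a difference of 2.16 ± 0.32 (SE, adjusted p = 0.000201). Each Ly-6B+ array lay above each 72 h array. Pdgfb, a growth factor for fibroblasts and pericytes, read 310.3, 446 and 523 in the Ly-6B+ arrays and 207, 204 and 173 at 72 h, a difference of 1.05 ± 0.27 (SE, adjusted p = 0.0254), and the call was lost in 7 of 19 alternatives. Timp1, an inhibitor of metalloproteinases, was lower: it read 78.7, 64.1 and 135 in the Ly-6B+ arrays and 751, 789.9 and 878 at 72 h, a difference of -2.99 ± 0.23 (SE, adjusted p = 3.6e-08). Mmp14, a membrane-bound metalloproteinase, was lower at -1.28. In both genes no arrays overlapped. Igf1 differed by -1.29 with an adjusted p of 0.194 and was not called. Of 22 such genes tested, 2 were higher and 3 lower, with a median of -0.0312.

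Coagulation genes went both ways. Higher were F3 and F7, which together start clotting, and F13a1, which acts at its end. F3, tissue factor, read 512, 459.8 and 217 in the Ly-6B+ arrays and 133, 106 and 104 at 72 h, a difference of 1.59 ± 0.38 (SE, adjusted p = 0.0149). F7, the protease it activates, read 5823, 6626 and 6197 in the Ly-6B+ arrays and 2801, 2392 and 2664 at 72 h, a difference of 1.24 ± 0.26 (SE, adjusted p = 0.00464). F13a1, the chain that crosslinks fibrin and a common gene of monocytes, read 13078, 14055 and 16227 in the Ly-6B+ arrays and 7894, 6205 and 4320.4 at 72 h, a difference of 1.27 ± 0.21 (SE, adjusted p = 0.000613). The groups did not overlap in any of these 3, and the F3 call was lost in 6 of 19 alternatives.

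Lower was F5, the cofactor of thrombin formation. It read 8827, 8066 and 9428 in the Ly-6B+ arrays and 18771, 15857 and 20935 at 72 h, a difference of -1.07 ± 0.15 (SE, adjusted p = 7.65e-05). Serpinb2, which inhibits urokinase, read 10770, 8807 and 6674 in the Ly-6B+ arrays and 22350, 22452 and 23963 at 72 h, a difference of -1.41 ± 0.23 (SE, adjusted p = 0.000421). Both genes were strong in all arrays, and each 72 h array was above each Ly-6B+ array. Over the 12 coagulation genes tested, 3 were higher, 2 lower and 7 neither. Plaur, the urokinase receptor, differed by -0.13, and F10 by -0.01.

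Serpinb2 was not alone in its family. Of 6 clade B serpins tested, protease inhibitors that stay largely inside the cell, 4 were called lower, with a median of -1.34. Serpinb6a read 2247, 3749.9 and 4791 in the Ly-6B+ arrays and 8775, 14697 and 15304 at 72 h, a difference of -1.87 ± 0.29 (SE, adjusted p = 0.000368). Serpinb1a, an inhibitor of neutrophil elastase, read 5308, 4707 and 3933 in the Ly-6B+ arrays and 11747, 10966 and 10548 at 72 h, a difference of -1.26 ± 0.29 (SE, adjusted p = 0.0116). Replicates 2 and 3 of 72 h were the highest in Serpinb6a, and the 3 were alike in Serpinb1a. Serpinb7 differed by -1.43. Serpinb8 and Serpinb9 differed by -0.14 and -0.21 and were not called. The list was drawn up after values were seen.

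The eicosanoid and lipid genes called were all lower. At an unadjusted limma p of 0.05, 3 eicosanoid genes were higher and 3 lower, and 2 lipid genes were higher and 7 lower. Ptgis, which makes prostacyclin, read 5319, 6799 and 4099.8 in the Ly-6B+ arrays and 19503, 18837 and 23270 at 72 h, a difference of -1.95 ± 0.31 (SE, adjusted p = 0.000465). Pla2g7, which breaks down platelet activating factor, read 2640.0, 3509 and 2247 in the Ly-6B+ arrays and 6580.2, 9336 and 9373 at 72 h, a difference of -1.59 ± 0.24 (SE, adjusted p = 0.000188). These were the only 2 of 16 eicosanoid genes called, and Ptgs2, the inducible cyclooxygenase, differed by 1.22 ± 0.46 (SE, adjusted p = 0.17) without a call. In both enzymes the groups were well apart. Fabp4, a fatty acid carrier, read 4119, 4980.2 and 3183 in the Ly-6B+ arrays and 13108, 12471 and 18072 at 72 h, a difference of -1.83 ± 0.26 (SE, adjusted p = 0.000114). Of 23 lipid genes tested 3 were called, all lower: Fabp4, Fabp7 at -1.18 and the apolipoprotein Apoc1 at -2.33. Apoe differed by 0.05 and Lpl by -0.11. Of 16 genes of cholesterol synthesis limma called 0, with a median of 0.192, and 3 higher and 1 lower passed an unadjusted p of 0.05.

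Receptors for dying cells and modified lipoproteins were called in part. Of 22 genes of apoptotic cell uptake tested, 4 were lower: Timd4, Itgb3, Tgm2 and Mfge8. Tgm2, a crosslinking enzyme, read 1862, 2674 and 1828 in the Ly-6B+ arrays and 4066, 4788 and 5704 at 72 h, a difference of -1.20 ± 0.29 (SE, adjusted p = 0.0163). Mfge8, which bridges dying cells to integrins, read 756, 699 and 719.6 in the Ly-6B+ arrays and 1653, 1519 and 1871 at 72 h, a difference of -1.19 ± 0.14 (SE, adjusted p = 1.04e-05). Mertk, the TAM receptor of macrophages, read 5579, 4954 and 4806 in the Ly-6B+ arrays and 3539, 2776 and 4100.0 at 72 h. Its arrays did not overlap and were higher in Ly-6B+, but the difference of 0.57 ± 0.17 (SE, adjusted p = 0.0574) was not called.

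Of 11 scavenger receptors 3 were called, all lower, with a median of -0.536. Colec12, a collectin of the membrane, read 213, 132 and 137 in the Ly-6B+ arrays and 545, 402 and 651 at 72 h, a difference of -1.65 ± 0.21 (SE, adjusted p = 2.8e-05). Olr1, a receptor for oxidised lipoprotein, differed by -1.56. Cd68, a glycoprotein of macrophage lysosomes, read 6550.2, 10765 and 9401 in the Ly-6B+ arrays and 14822, 21956 and 22110 at 72 h, a difference of -1.15 ± 0.21 (SE, adjusted p = 0.00172). Msr1 and Mrc1 differed by 0.01 and 0.51 and were not called. Among 22 lysosomal genes, Glb1, the beta-galactosidase, was the 1 called: it read 3055, 3239.6 and 2734 in the Ly-6B+ arrays and 7587, 8355 and 10422 at 72 h, a difference of -1.53 ± 0.13 (SE, adjusted p = 1.24e-07).

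Enzymes and receptors for extracellular purines, a list made after values were seen, gave 4 called genes of 15, all lower. Nt5e, the ectonucleotidase CD73 that makes adenosine, read 293, 267 and 195 in the Ly-6B+ arrays and 1372, 1949.5 and 1902 at 72 h, a difference of -2.72 ± 0.26 (SE, adjusted p = 7.92e-07). Entpd1, the enzyme CD39 that acts a step before it, differed by -0.18 and was not called. P2ry14, a receptor for UDP sugars, read 94.7, 55.5 and 86.4 in the Ly-6B+ arrays and 405, 500.1 and 835 at 72 h, a difference of -2.62 ± 0.25 (SE, adjusted p = 7.8e-07). The channel P2rx1 differed by -2.26 and Enpp5 by -2.68.

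Retinoid genes are of interest because vitamin A signals sustain Gata6 in the cavity. Of 12 tested, 3 were called, all lower. Aldh1a2, which makes retinoic acid, read 603, 422 and 869 in the Ly-6B+ arrays and 997, 1376 and 1426 at 72 h, a difference of -1.03 ± 0.22 (SE, adjusted p = 0.00701). Cyp26b1, which degrades it, differed by -1.33, and the receptor Rxrg by -2.0. The Aldh1a2 and Cyp26b1 calls were each lost in 7 alternatives, and this list too was chosen after values were seen.

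Among genes for other functions with large decreases, Clec1b, the receptor CLEC-2 of platelets and some myeloid cells, read 58.8, 43.8 and 9.91 in the Ly-6B+ arrays and 584, 823 and 564 at 72 h, a difference of -3.80 ± 0.40 (SE, adjusted p = 2.76e-06). The other platelet genes were not called, with Pf4 at -0.67 and Itga2b at -0.13. Cd55, which protects cells from complement, read 16.8, 57.9 and 21 in the Ly-6B+ arrays and 259.7, 603 and 473 at 72 h, a difference of -3.32 ± 0.41 (SE, adjusted p = 2.44e-05). Saa1, an acute phase apolipoprotein with a close relative in Saa2, read 20.9, 19.3 and 57.3 in the Ly-6B+ arrays and 336, 549 and 933 at 72 h, a difference of -3.68 ± 0.36 (SE, adjusted p = 1.12e-06). Cd24a, a surface glycoprotein of many immature blood cells, read 2314, 1425 and 1221 in the Ly-6B+ arrays and 12811, 10223 and 9764 at 72 h, a difference of -2.76 ± 0.27 (SE, adjusted p = 1.54e-06). In each of these 4 genes every 72 h array was above every Ly-6B+ array. Shank3 and Cadps2, better known from synapses and secretory vesicles, were lower by similar amounts, at -3.35 and -3.23, as were the HMG box factor Tox2 at -3.60 and the vomeronasal receptor gene Vmn2r26 at -3.47.

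**Figure D3:**
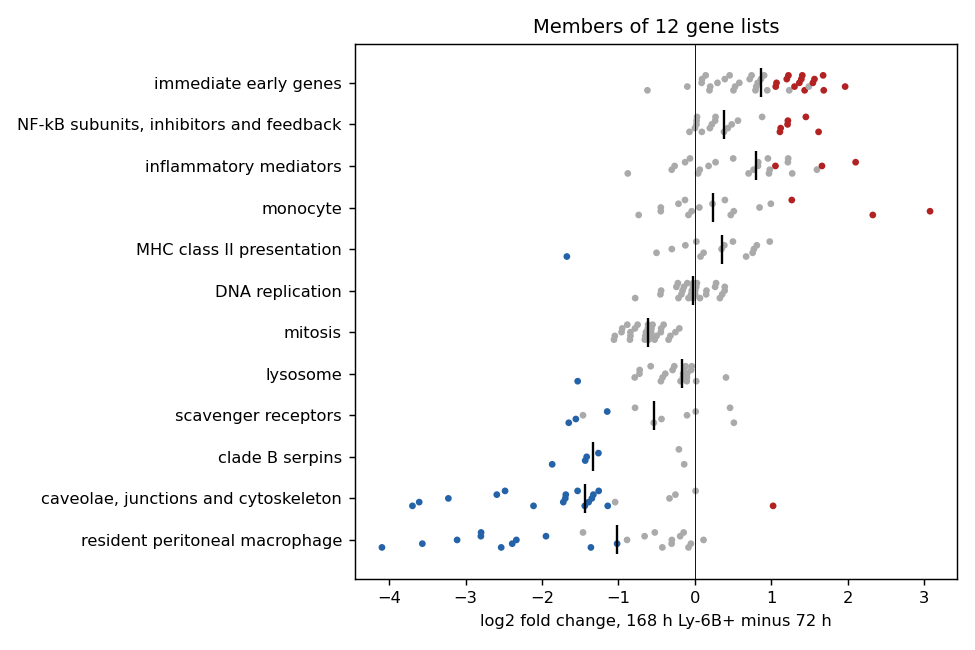
Log2 difference, Ly-6B+ at 168 h minus 72 h (x axis), of each tested member of 12 gene lists, with red for called higher, blue for called lower, grey for not called and a black bar at the median of the list. The medians ran from -1.44 for caveolae, junctions and cytoskeleton to 0.866 for immediate early genes.

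Genes higher in the Ly-6B+ macrophages included 14 immediate early genes, which cells switch on within minutes of a stimulus. The list was extended after values were seen. These were 14 of 37 tested, all called members were higher, and the median was 0.866. The called share of all genes in that direction was 0.674%. The summed signal of 38 such genes was 217450 to 264430 in Ly-6B+ and 157890 to 172370 at 72 h. Means were 224240 in Ly-6B- macrophages, 193730 in resident ones, 209390 at 18 h, 247000 at 4 h and 253620 in marrow. The 72 h arrays thus lay below the mean of every other group, and the Ly-6B- mean lay within the Ly-6B+ range. Nr4a1, an orphan nuclear receptor, read 5220.4, 4718 and 5462 in the Ly-6B+ arrays and 2063, 2255 and 1525 at 72 h, a difference of 1.41 ± 0.28 (SE, adjusted p = 0.00351). Its relative Nr4a2 read 944, 709 and 996 in the Ly-6B+ arrays and 255, 268 and 259.8 at 72 h, a difference of 1.69 ± 0.29 (SE, adjusted p = 0.000886). In both the groups were well apart and the replicates close.

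Others were factors and brakes of stress and MAP kinase signals. Atf3, a stress-induced repressor, read 8432, 10626 and 10727 in the Ly-6B+ arrays and 4200.2, 3871 and 3223 at 72 h, a difference of 1.40 ± 0.29 (SE, adjusted p = 0.00464). Fosb, a subunit of AP-1, read 753, 601 and 399 in the Ly-6B+ arrays and 163, 213 and 171 at 72 h, a difference of 1.57 ± 0.31 (SE, adjusted p = 0.00358). No Ly-6B+ array of Atf3 or Fosb fell within the 72 h range. Dusp2, a phosphatase that ends MAP kinase signals, read 627, 774 and 521 in the Ly-6B+ arrays and 144, 255 and 176 at 72 h, a difference of 1.68 ± 0.28 (SE, adjusted p = 0.000654). Maff, a small MAF factor, read 290.1, 475 and 389 in the Ly-6B+ arrays and 114, 61 and 87.5 at 72 h, a difference of 1.97 ± 0.48 (SE, adjusted p = 0.0161), and was lost in 5 of 20 alternatives.

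The remaining called members were Gadd45b at 1.55, Csrnp1 at 1.44, Phlda1 at 1.37, Egr3 at 1.31, Trib1 at 1.23, Ppp1r15a at 1.2, Ets2 at 1.07 and Per1 at 1.06. Fos itself read 21149, 22975 and 25840 in the Ly-6B+ arrays and 18670, 18108 and 19987 at 72 h, a difference of 0.30 ± 0.11 (SE, adjusted p = 0.174). Jun differed by 0.95 ± 0.26 (SE, adjusted p = 0.0386) and Egr1 by 1.24 ± 0.60 (SE, adjusted p = 0.33), and neither was called. The Csrnp1 call was lost in 10 of 20 alternatives, the Gadd45b call in 5 of 20 and the Egr3 call in 6 of 19. Egr1 was uneven within the Ly-6B+ group, where it read 13584, 20342 and 8711.

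The count depended on single arrays. Without the second Ly-6B+ array 7 immediate early genes were called, without the third 72 h array 9, and where probe sets of a gene were averaged 9. Many of these genes are also induced by the handling of cells. The summed signal of 20 handling genes was 225700 to 249110 in Ly-6B+ and 158710 to 175540 at 72 h, against means of 211540 in Ly-6B- macrophages and 193540 in resident ones. That list, which shares members with the first, had 4 genes called higher of 20. Its part in these differences was not tested.

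Regulators of NF-kB signalling were higher in part. Of 21 tested, 6 were called, all higher, with a median of 0.383, on a list made after values were seen. Tnfaip3, the deubiquitinase A20 that ends the signal, read 8399, 10068 and 7703 in the Ly-6B+ arrays and 2557, 3087 and 2805 at 72 h, a difference of 1.62 ± 0.36 (SE, adjusted p = 0.00837). Nfkbiz and Nfkbid, nuclear IkB proteins, differed by 1.12 and 1.22. Zc3h12a, an RNase that destroys cytokine transcripts, read 575, 639 and 439 in the Ly-6B+ arrays and 192, 209 and 168 at 72 h, a difference of 1.45 ± 0.31 (SE, adjusted p = 0.00531). The kinase Map3k8 was higher by 1.12 and the paracaspase Malt1 by 1.22, both of which promote signalling. The subunits Rela, Nfkb2 and Relb differed by 0.03, -0.07 and 0.20 and were not called.

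Cytokines and chemokines were higher on the median but mostly not called. Of 24 inflammatory mediators, 3 were called, all higher, with a median of 0.799. Cxcl10, a chemokine for activated T cells, read 413, 1110.2 and 433 in the Ly-6B+ arrays and 187, 93.5 and 109 at 72 h, a difference of 2.11 ± 0.40 (SE, adjusted p = 0.00214). Tnfsf9, the ligand of 4-1BB, read 649.8, 776 and 257 in the Ly-6B+ arrays and 218, 112 and 137 at 72 h, a difference of 1.67 ± 0.37 (SE, adjusted p = 0.00887). In both the groups did not overlap, though Tnfsf9 was uneven in Ly-6B+. Osm, the IL-6 family cytokine oncostatin M, read 4217, 4971 and 4928 in the Ly-6B+ arrays and 2359, 2239 and 2152 at 72 h, a difference of 1.06 ± 0.25 (SE, adjusted p = 0.0146). Without the second Ly-6B+ array, which was the highest in Cxcl10 and Tnfsf9, 1 mediator was called.

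Tnf read 653, 833 and 390.5 in the Ly-6B+ arrays and 178, 395 and 189 at 72 h, a difference of 1.28 ± 0.50 (SE, adjusted p = 0.191). Il1b read 663, 458 and 369 in the Ly-6B+ arrays and 206, 517 and 124 at 72 h, a difference of 0.97 ± 0.42 (SE, adjusted p = 0.253). In both genes the second 72 h array overlapped the Ly-6B+ arrays, and neither was called. Ccl12 and Ccl2, chemokines for monocytes, differed by 1.60 and 1.22, with adjusted p-values of 0.168 and 0.0715. Nlrp3, the sensor of the inflammasome, read 847, 707 and 600.5 in the Ly-6B+ arrays and 405, 221 and 275 at 72 h, a difference of 1.24 ± 0.22 (SE, adjusted p = 0.00129), and was the 1 gene called of 24 for pattern recognition.

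Ccrl2, an atypical receptor that binds chemerin, read 5358, 8455 and 5446 in the Ly-6B+ arrays and 1341, 1595 and 1882 at 72 h, a difference of 1.97 ± 0.40 (SE, adjusted p = 0.00436). Irs2, an adaptor of insulin and IL-4 signals, read 600.3, 1185 and 693 in the Ly-6B+ arrays and 249.6, 212 and 244 at 72 h, a difference of 1.69 ± 0.28 (SE, adjusted p = 0.000689). Ifrd1, a transcriptional co-regulator, read 3736, 3968 and 3658 in the Ly-6B+ arrays and 1410.0, 974 and 1031 at 72 h, a difference of 1.74 ± 0.23 (SE, adjusted p = 6.58e-05). In all 3 every Ly-6B+ array was above every 72 h array. Rasgef1b, an exchange factor for RAP, differed by 1.87. Fam71a, with the second largest increase, read 406, 230.2 and 591 in the Ly-6B+ arrays and 44.4, 102 and 40.3 at 72 h, but its call was lost in 13 of 19 alternatives.

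Beyond Chil3, Cd177 and F13a1, monocyte genes were not called. Of 17 tested 3 were called, all higher, with a median of 0.233. Ccr2, the receptor that brings monocytes out of the marrow, read 8142, 6546 and 5854 in the Ly-6B+ arrays and 8365, 4095 and 3406 at 72 h, and the groups overlapped. Other probe sets of Ccr2 did not go 1 way, with differences of 1.21, 0.02 and -0.34. Plac8 read 11363, 13626 and 9704 in the Ly-6B+ arrays and 5579.8, 6220.0 and 5432 at 72 h, did not overlap, and differed by 0.996 ± 0.26 (SE, adjusted p = 0.0236), just under the size for a call. Cx3cr1 differed by -0.21.

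Antigen presentation by MHC class II gave a median of 0.351 over 15 genes. By limma 0 of them were called higher, and 5 passed an unadjusted p of 0.05 in that direction. H2-Ab1, the beta chain of I-A, read 21249, 25377 and 28108 in the Ly-6B+ arrays and 11912, 13771 and 17019 at 72 h. Its arrays did not overlap, yet the difference was 0.81 ± 0.33 (SE, adjusted p = 0.211), also under the size for a call. This SE draws on all 7 groups, and the naive resident arrays of H2-Ab1 read 2141, 7887 and 3877. Another 2 probe sets of H2-Ab1 differed by 1.36 and 1.35. Ciita, the master activator of the pathway, read 374, 479.9 and 384 in the Ly-6B+ arrays and 219.7, 199 and 184 at 72 h, a difference of 0.98 ± 0.22 (SE, adjusted p = 0.00926), just under the size for a call. The called member was Lgmn, a protease of endosomes, which was lower: it read 2778, 3856 and 3826 in the Ly-6B+ arrays and 9289, 11924 and 12122 at 72 h, a difference of -1.67 ± 0.13 (SE, adjusted p = 8.42e-08).

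Limma called 0 of 29 genes of mitosis, with a median of -0.61, and at an unadjusted p of 0.05 2 passed, both lower. This median rested on 1 array. The summed mitosis signal at 72 h was 30483, 89862 and 18610 in the 3 replicates, and 39773, 20308 and 17328 in Ly-6B+. Without the second 72 h array, the median was 0.0429, still with 0 called. Mki67, a marker of dividing cells, read 6753, 3178 and 3019 in the Ly-6B+ arrays and 4757, 11519 and 2411 at 72 h, and the groups overlapped. Of 29 genes of DNA replication 0 were called, with a median of -0.0199. None of the replication genes passed an unadjusted p of 0.05 either.

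Markers of alternative activation gave no common direction. Of 16 tested 1 was higher, Chil3, and 1 lower, Tgm2. Retnla, the secreted protein RELM-alpha, read 16582, 14737 and 26686 in the Ly-6B+ arrays and 10674, 20212 and 12539 at 72 h, and Arg1, which breaks down arginine, 7986, 15943 and 8987 against 15880, 22739 and 21113. Both overlapped between groups. The 21 genes of the respiratory chain had a median of -0.135 and 0 calls by limma, and 2 lower ones passed an unadjusted p of 0.05.

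Levels in the other groups placed these genes in several patterns, given here as means ± SD of 3 arrays with no test. Timd4 read 16913 ± 519 in Ly-6B- macrophages at 168 h and 18633 ± 532 in resident ones, against 347 ± 107 at 18 h. Garnl3 likewise read 4156 ± 527 and 4236 ± 180.1, against 94.1 ± 17.1 at 18 h. Cav1 read 3385 ± 743, 2261 ± 41.7 and 171 ± 65.7 in the same order. For these genes the Ly-6B+ means of 1623 ± 449, 183 ± 83.4 and 283 ± 58.4 were above those at 18 h. They were below the means of the other 3 groups of macrophages. In Cav1 the Ly-6B+ and 18 h arrays overlapped, with 222 in the lowest Ly-6B+ array and 243 in the highest at 18 h.

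Ctla2a, Saa1 and Timp1 were high at 72 h and low in both groups of 168 h. Ctla2a read 166 ± 66.1 in Ly-6B- and 113 ± 38.6 in resident macrophages, and Saa1 62.4 ± 16.7 and 45.1 ± 12.1. Timp1 read 104 ± 19.3 and 71.7 ± 23.5 there, but 4503 ± 772 at 4 h and 1765 ± 159 at 18 h. In Ctla2a and Saa1 the 72 h mean was the highest of the 7 groups.

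Chil3 ran from 30178 ± 3718 in bone marrow monocytes and 31522 ± 1829.7 at 4 h to 908 ± 687 in Ly-6B- and 285 ± 67.5 in resident macrophages, with the Ly-6B+ cells near the 18 h level of 20843 ± 1431. F13a1 was likewise highest in these groups, with 25418 ± 1244 in marrow and 25760 ± 748 at 4 h. Ccrl2 differed from them, since Ly-6B- macrophages at 5545 ± 729 were near the Ly-6B+ level of 6419.5 ± 1763. Osm in Ly-6B- cells (4372 ± 412) and Nlrp3 (754 ± 249) were also within the range of the Ly-6B+ arrays. Hdc had a pattern of its own, with 3396 ± 846 at 4 h, 171 ± 41.8 at 18 h and 3176 ± 286 in Ly-6B- cells.

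**Figure D4:**
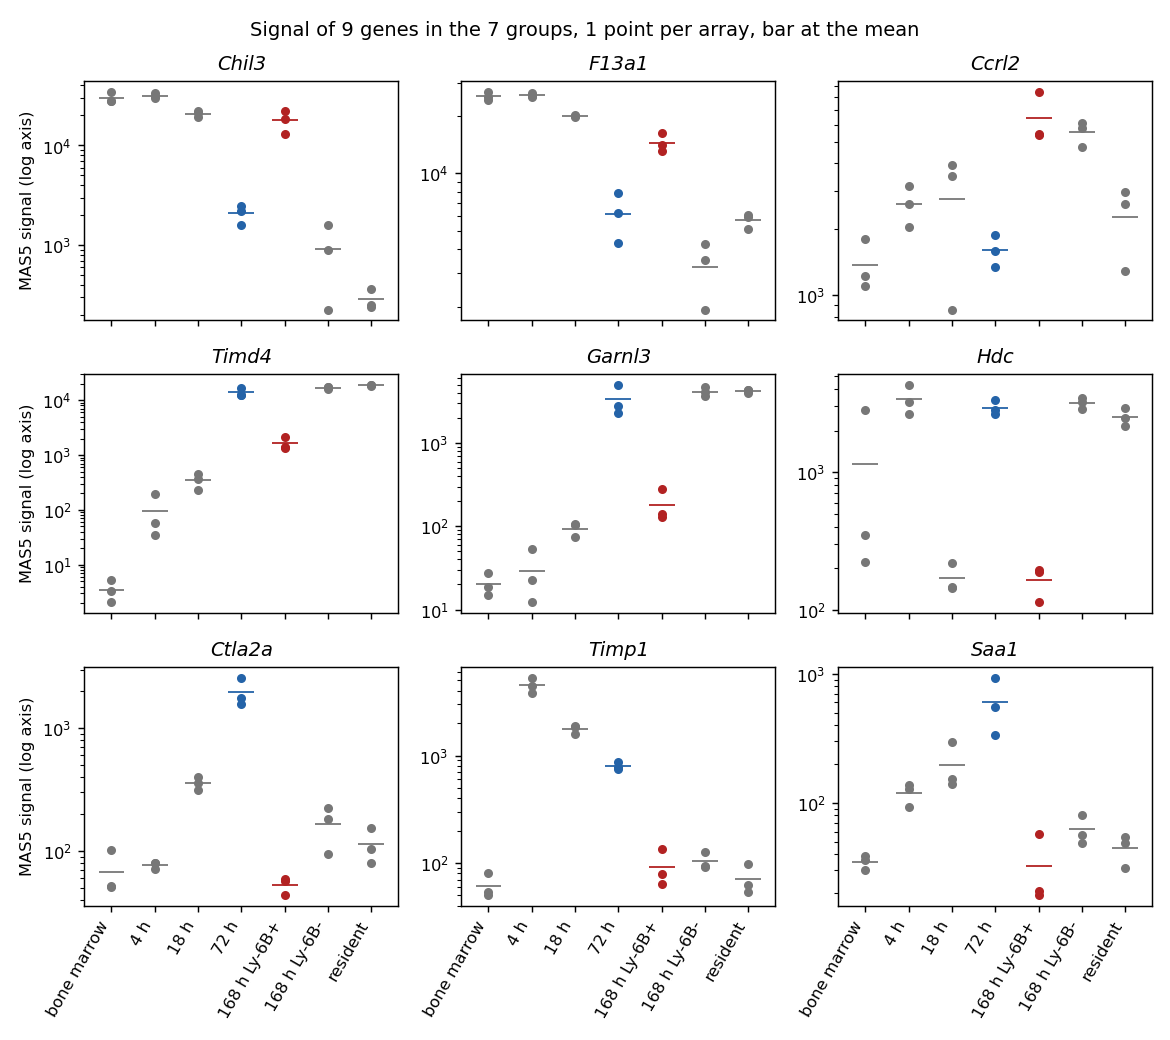
MAS5 signal (y axis, log) of 9 genes in the 7 groups, with 1 point per array, a bar at the mean of 3, red for Ly-6B+ at 168 h and blue for 72 h. The top row shows genes higher in Ly-6B+, the middle row genes that are high at 72 h and in Ly-6B- and resident macrophages, and the bottom row genes that are high at 72 h and low in both groups of 168 h.

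The genes called here were also looked up in a comparison that shares no arrays with this one, naive resident macrophages against bone marrow monocytes, where 12.9% of genes were higher in resident cells and 10.2% lower. Of the 227 genes lower in Ly-6B+, 187 (82.4%) were higher in resident macrophages, which is 11.9% of the 1566 such genes. Another 7 (3.08%) were lower in resident cells. Of the 82 genes higher in Ly-6B+, 38 (46.3%) were lower in resident macrophages, 3.06% of the 1241 such genes, and 10 (12.2%) were higher. With each of the 6 arrays left out in turn, the 82.4% ran from 81% to 86.3% and the 46.3% from 44.2% to 49.5%. The smaller shares moved more. The 12.2% fell to 4.4% (4 of 91 genes) without the second 72 h array and to 5.26% (3 of 57) without the second Ly-6B+ array, and rose to 16.7% (9 of 54) without the third 72 h array. The 3.08% ran from 1.58% without the second 72 h array to 5.36% without the third.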

How the data were processed

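Per the labels, cells were sorted on ice and 100 ng of RNA was amplified and labelled in 2 cycles for Affymetrix arrays. The authors used MAS5 in Affymetrix Expression Console 1.2, per the submitters' processing notes, and deposited linear signal intensity. The 2% trimmed mean was 500.0 in every array. Sequencing depth does not apply, and the 3 arrays per group limit the precision. Of 45101 probe sets, 34958 had 1 gene symbol, 932 several and 9211 none listed. Each gene took its probe set with the highest mean. A gene was tested where 3 or more arrays exceeded 80.6, the median over the whole table.

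Values were compared as log2(signal + 15), where 15 is the rounded 20th percentile, in R 4.3.3 with limma 3.58.1 (lmFit, eBayes with trend, 2-sided, 14 residual degrees of freedom, Benjamini-Hochberg adjustment). The procedure was tested on simulated data. Named genes were the 15 with the largest change in each direction whose arrays do not overlap, the 4 markers, up to 3 called members per list and direction, and reference genes; others were named after their values were seen. Members and lists were chosen with earlier results of these data known. Same-numbered arrays had residual correlations of 0.0756, -0.0366 and 0.209, against -0.249 to 0.175 for arrays of unlike number. The main fit did not pair arrays by number. Replicate 2 had the lowest Gapdh 3'/5' ratio in every group, so arrays of 1 number may share structure that the main fit did not model. Alternatives changed the pseudocount, normalization, filter, probe set choice, trend, weights, block, arrays fitted, minimum fold and each replicate; the Gapdh covariate was added after the data were seen. Detection calls and genome positions of probe sets were not used here.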

Additional observations from a re-analysis of the deposited data

How the results depend on the processing

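The count of 309 called genes (82 higher, 227 lower) stayed within 1.5 times under all alternatives but 3. With no minimum fold it was 615 (223 higher, 392 lower). When probe sets of a gene were averaged, 51 genes were higher, and Car12, called lower at -1.16, changed sign to 0.10 without a call. With 1 array left out in turn, the total ran from 222 to 329, the higher genes from 54 to 91 and the lower genes from 168 to 243. The lowest values came without the third 72 h array, which kept 211 of the 309 calls, and 238 were kept without the second 72 h array. With the replicate number as a block, 318 genes were called (87 higher, 231 lower), or 291 (83 higher, 208 lower) over the 6 arrays alone. A fit with the Gapdh 3'/5' ratio of each array as covariate, added after the data were seen, gave 267 genes, 239 of them among the 309. Of 77 genes named by rule 65 were called, 46 in every alternative, and none of the 65 changed sign under an alternative. With 3 arrays a group and 1 array that stands apart at 72 h, differences in B cell, mast cell and mitosis genes cannot be settled here. Signals near the floor give fold changes that depend on the pseudocount: 275 genes were called with a pseudocount of 1 and 260 with 4 times that used.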

Other observations

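Several further genes, chosen after their values were seen, add to the picture of the Ly-6B+ macrophages. Epas1, the factor HIF-2 alpha, read 970.2, 882 and 553 in the Ly-6B+ arrays and 4319.7, 5960.2 and 5694 at 72 h, a difference of -2.73 ± 0.25 (SE, adjusted p = 7.13e-07), and Egln3, a prolyl hydroxylase that marks HIF proteins for decay, differed by -2.69 ± 0.31 (SE, adjusted p = 8.03e-06). Hif1a itself differed by 0.14 and was not called. Of 20 genes of glycolysis and hypoxia tested, Vegfa was called higher, Egln3 lower and 18 neither, with a median of -0.0803. The chemokine Cxcl12 read 193, 216 and 216 in the Ly-6B+ arrays and 1074, 933 and 1962 at 72 h, a difference of -2.51 ± 0.38 (SE, adjusted p = 0.000265), and its scavenging receptor Ackr3 was lower at -1.18, while the signalling receptor Cxcr4 differed by 0.39 and was not called. In Epas1 and Cxcl12 each 72 h array lay above each Ly-6B+ array.

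Aqp9, a channel for water and glycerol, read 458, 297 and 402 in the Ly-6B+ arrays and 2233, 2089 and 2880.4 at 72 h, a difference of -2.60 ± 0.20 (SE, adjusted p = 3.43e-08), and Slc7a2, a carrier of arginine, read 1154, 1152 and 1137 in the Ly-6B+ arrays and 4028, 4678 and 5046 at 72 h, a difference of -1.98 ± 0.21 (SE, adjusted p = 3.44e-06). Among genes higher in Ly-6B+, the PIM kinases Pim3 and Pim1 differed by 1.32 and 1.05, the kinase Sgk1 by 1.02, the receptor for hepatocyte growth factor Met by 1.10 and the aryl hydrocarbon receptor Ahr by 1.26. Hcar2, a receptor for hydroxybutyrate and niacin, read 2816, 3551 and 2092 in the Ly-6B+ arrays and 983, 725 and 1047 at 72 h, a difference of 1.59 ± 0.31 (SE, adjusted p = 0.00305). In Hcar2 the lowest Ly-6B+ array was above the highest at 72 h.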
